A study of Mus musculus with 24 samples.

Results

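Chemokines are small secreted proteins that draw leukocytes along a gradient, and 10 of them are described here in the hippocampus of mice that carry Alzheimer's disease transgenes. They are 7 CC chemokines (Ccl2, Ccl3, Ccl4, Ccl5, Ccl6, Ccl9 and Ccl12) and 3 CXC chemokines (Cxcl1, Cxcl10 and Cxcl16), out of 35259 features tested. They were listed by symbol, and a probe was taken for a member when the RefSeq transcript it names belongs to that symbol. A total of 12 probes met this rule, with 2 probes each for Ccl4 and Cxcl16. All 10 members passed the filter on dim probes. The probes of 9 members were well above background on 24 of 24 arrays, and that of Cxcl1 on 21 of 24.

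The study profiled hippocampal RNA of 24 male mice, 1 one-colour microarray per animal, in 6 groups. All mice carry the strain label B6.Cg-Tg(APPswe,PSEN1dE9)85Dbo/J, and the wild-type groups are those whose genotype is given as lacking both transgenes. WT_CTR (n = 4) and APP-PS1_CTR (n = 3) are wild-type and transgenic mice that were given water. APP-PS1_UA (n = 4) are transgenic mice given urolithin A, a gut bacterial metabolite of ellagitannins, by gavage from 2 to 7 months of age. WT_WASHOUT (n = 5) and APP-PS1_WASHOUT (n = 3) were given water and then passed through a washout of 1 month, and APP-PS1_UA-WASHOUT (n = 5) had the same washout after urolithin A. Sample labels give ages of 8 months without and 9 months with washout, whereas the series description gives 7 months and 1 month more. The dose of urolithin A is given as 200 mg/kg per day in one text and as 20 in another, so it is not settled here.

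As a model, the transgenic line carries a chimeric amyloid precursor protein with the Swedish mutations and a mutant human presenilin 1, each behind the prion protein promoter, so that transgene products are made mainly in neurons and amyloid plaques form with age. No wild-type group received urolithin A, and nothing here bears on its effect without the transgenes. Nothing in the labels says whether animals were littermates, and p-values measure the spread between these animals.

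CC and CXC chemokines are named for the spacing of their first cysteines and act through G protein-coupled receptors on leukocytes. Ccl3, Ccl5, Ccl6 and Ccl9 bind Ccr1, and Ccl4 is a close relative of Ccl3. Ccl2 and Ccl12 bind Ccr2, the receptor of inflammatory monocytes. Cxcl1 draws neutrophils through Cxcr2, Cxcl10 is an interferon-induced ligand of Cxcr3, and Cxcl16 is a membrane-bound ligand of Cxcr6 that Adam10 and Adam17 can shed. In the brain, Ccl3, Ccl4 and Ccl6 are known as products of activated microglia, and microglia around plaques make more Ccl3 and Ccl4 in amyloid models.

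In the GRCm38.p6 RefSeq annotation, 8 of the 10 genes lie on chromosome 11, in the order Cxcl16, Ccl2, Ccl12, Ccl5, Ccl9, Ccl6, Ccl3 and Ccl4, and Cxcl1 and Cxcl10 lie on chromosome 5. RefSeq promoter windows were at hand for 6 of the 10 (Ccl3, Ccl6, Ccl9, Ccl12, Cxcl1 and Cxcl10). The 250 bases before the start are shown for the 4 genes of these whose level passed the test in at least 1 comparison: Ccl3 and Ccl6, which were higher in transgenic mice, Ccl12, which was higher in transgenic than in wild-type mice at the washout stage, and Cxcl1, which was lower in them there. They are at chr11:83649379-83649628 (minus strand, Ccl3), chr11:83593088-83593337 (minus strand, Ccl6), chr11:82101595-82101844 (plus strand, Ccl12) and chr5:90890995-90891244 (plus strand, Cxcl1), each printed 5′ to 3′ on the gene's strand. Capitals mark matches to the 4 motifs searched.
Ccl3: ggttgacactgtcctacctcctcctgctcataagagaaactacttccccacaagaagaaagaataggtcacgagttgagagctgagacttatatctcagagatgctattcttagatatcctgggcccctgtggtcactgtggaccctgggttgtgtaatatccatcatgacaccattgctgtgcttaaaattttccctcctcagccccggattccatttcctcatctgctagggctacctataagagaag
Ccl6: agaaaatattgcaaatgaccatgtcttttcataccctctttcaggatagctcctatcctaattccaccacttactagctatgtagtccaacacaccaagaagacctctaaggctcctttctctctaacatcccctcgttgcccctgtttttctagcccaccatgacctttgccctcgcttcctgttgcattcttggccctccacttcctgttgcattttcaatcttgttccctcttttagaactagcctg
Ccl12: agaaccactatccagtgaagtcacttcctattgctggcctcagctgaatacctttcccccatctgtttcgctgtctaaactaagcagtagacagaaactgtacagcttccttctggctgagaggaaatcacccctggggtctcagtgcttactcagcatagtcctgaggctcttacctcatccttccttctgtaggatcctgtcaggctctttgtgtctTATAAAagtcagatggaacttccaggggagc
Cxcl1: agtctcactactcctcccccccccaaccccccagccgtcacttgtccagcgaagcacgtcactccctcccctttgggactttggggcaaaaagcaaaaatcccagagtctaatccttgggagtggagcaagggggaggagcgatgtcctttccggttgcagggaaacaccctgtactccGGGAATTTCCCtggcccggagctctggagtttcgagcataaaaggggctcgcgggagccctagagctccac
The motifs, searched on both strands with overlapping matches counted, were the kappa B consensus, the interferon response element (GAAA, any 2 bases, GAAA), the AP-1 motif TGANTCA and the TATA box TATAAA. Among 32851 promoter windows, each from 250 bases before to 50 after the start, 8.46% held a kappa B match, 3.44% the interferon element, 7.81% the AP-1 motif and 13.6% the TATA box. Cxcl1 held 2 overlapping kappa B matches at -71 and -70 bases from the start, and Ccl12 a TATA box at -31. Cxcl10 held kappa B matches at -159, -104 and -103, an interferon element at -213 and an AP-1 motif at -74. Ccl9 held kappa B at -35, AP-1 at -53 and TATA matches at -224, -94 and -92. Ccl3 and Ccl6 held no match, which says only that these letters are not in this window.

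Each array held 62976 spots, the arrays' 75th percentile signals ran from 1285.4 to 2291.6, and 63.7% to 76.9% of spots were well above background. Levels below are log2 processed signal relative to the array's own 75th percentile, so 0 is that percentile and negative values are dimmer; levels of different probes are not comparable. The 24 arrays lay on 3 slides of 8: slide 1 held WT_CTR, APP-PS1_CTR and 1 APP-PS1_UA array, slide 2 held WT_WASHOUT with the remaining 3 APP-PS1_UA arrays, and slide 3 held APP-PS1_WASHOUT and APP-PS1_UA-WASHOUT. Summed markers of hippocampal neurons were at 92.7 to 135 times the 75th percentile, with all 9 markers above background on every array. Choroid plexus markers ran from 2.72 to 196, with a wide range within every group but APP-PS1_CTR (92.2 to 136). Because tissue pieces were measured whole, fewer cells of a type and less RNA per cell cannot be told apart.

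Before washout, 3 chemokines were higher in transgenic than in wild-type hippocampus: Ccl3, Ccl4 and Ccl6. All 3 are CC chemokines made by macrophages and microglia. On the 4 WT_CTR arrays Ccl3 stood at -4.36, -5.12, -4.24 and -3.88, and on the 3 APP-PS1_CTR arrays at -1.65, -1.80 and -1.65. The groups did not overlap, and the transgenic values were nearly alike. Ccl3 was 6.51-fold higher, a log2 difference of 2.70 (SE 0.39, adjusted p = 0.00279 by limma over all features). Ccl4, the close relative of Ccl3, stood at -5.35, -5.70, -4.97 and -4.84 in WT_CTR and at -2.69, -2.22 and -2.35 in APP-PS1_CTR. It was 6.94-fold higher (log2 difference 2.79, SE 0.29, adjusted p = 4.43e-05). Its second probe ran from -6.61 to -5.25 in WT_CTR and from -3.17 to -2.94 in APP-PS1_CTR, again without overlap. Ccl6, a Ccr1 ligand, stood at -1.19, -1.98, -1.84 and -1.63 against 0.07, -0.13 and 0.15, a 3.23-fold difference (log2 1.69, SE 0.25, adjusted p = 0.00377).

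Over all features, 0.153% were called higher in this comparison (54 of 35259), against these 3 of 10 chemokines. In all 10 the median log2 difference was 1.03 with 8 above 0, and the median of all features was -0.01. Every APP-PS1_CTR array was above every WT_CTR array for 6 chemokines, Ccl3, Ccl4, Ccl6, Ccl9, Ccl12 and Cxcl10, where 4.31% of features showed this order. WT_CTR lay in the first row of slide 1 and APP-PS1_CTR in the second, so row and genotype cannot be told apart within this comparison. A row block is set by APP-PS1_UA, WT_WASHOUT and APP-PS1_UA-WASHOUT, each with a lone array in 1 of the rows. With array row as a block, Ccl4 kept its call (log2 difference 2.66, adjusted p = 0.0123), while Ccl3 was at 2.44 (adjusted p = 0.300) and Ccl6 at 1.39 (adjusted p = 0.565). Fitted on slide 1 alone, Ccl3 (adjusted p = 0.0377) and Ccl4 (0.0204) passed and Ccl6 did not (0.0539).

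Microglial markers moved with these genes. Summed signal of 12 microglial markers was 40.1 to 57.4 in WT_CTR and 62.7 to 75.8 in APP-PS1_CTR, with 1 of 12 called. For genes of plaque-associated microglia, 11 of 12 listed genes were measured, their sum was 17.3 to 19.3 against 26.9 to 30.7, and 5 of 11 were called. Markers of neutrophils (1.07 to 3.39 against 1.08 to 1.56), border macrophages (1.13 to 1.77 against 0.993 to 2.14), monocytes (8.64 to 10.3 against 8.58 to 10) and T or NK cells (3.11 to 6.15 against 4.58 to 7.44) overlapped between the groups, and none of these lists had a call. Choroid plexus markers were at 4.01 to 164 against 92.2 to 136, with 0 of 10 called, 10 of 10 above 0 and a median log2 difference of 2.11. The part of microglial number or state, and of choroid plexus in the tissue pieces, in the chemokine differences was not tested.

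**Figure D1:**
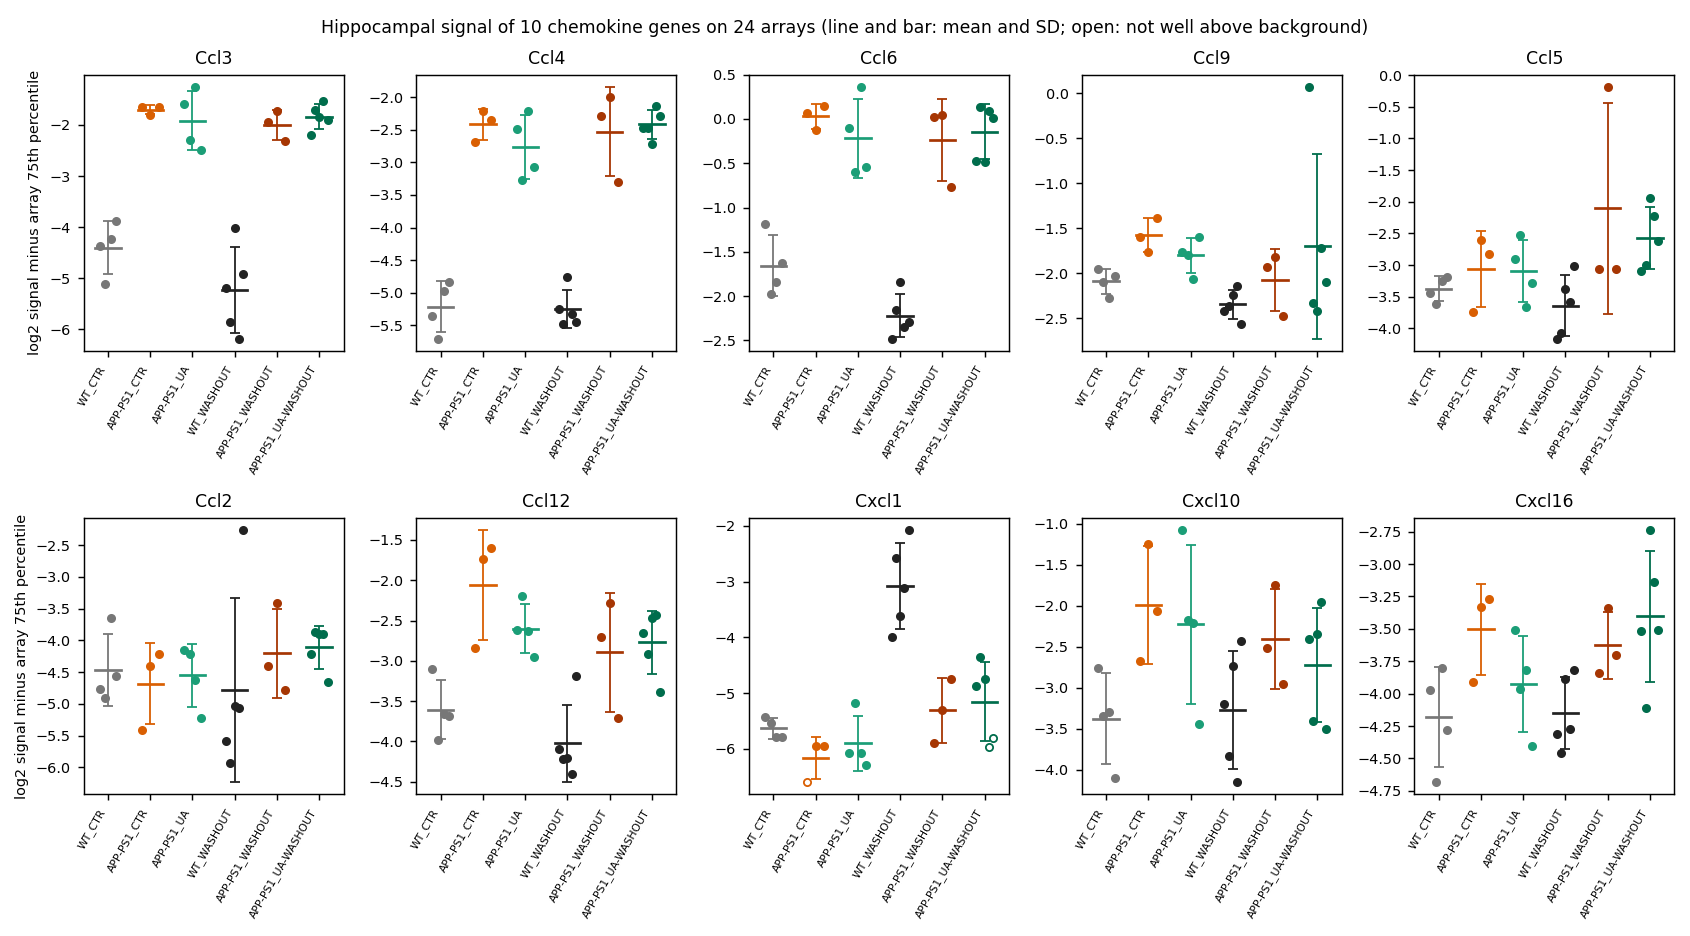
Log2 signal of each of the 10 chemokines on each of 24 arrays, relative to the array's 75th percentile, by group; points are animals, lines and bars the group mean and SD, and open points are arrays not well above background. Ccl3, Ccl4 and Ccl6 are higher in the 4 transgenic groups than in both wild-type groups without overlap, and Cxcl1 is highest in WT_WASHOUT, at -3.99 to -2.08.

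The other members before washout did not pass the test. Ccl12, a Ccr2 ligand found in mice, stood at -3.10, -3.98, -3.66 and -3.68 in WT_CTR and at -2.84, -1.74 and -1.60 in APP-PS1_CTR. The groups did not overlap, and the log2 difference was 1.54 (SE 0.36, adjusted p = 0.116). Its adjusted p ran from 0.0478 to 0.480 as single animals were left out, with a call in 1 of 7. Cxcl10 stood at -2.76, -3.35, -3.30 and -4.10 against -2.67, -1.24 and -2.07, a log2 difference of 1.38 (SE 0.53, adjusted p = 0.667), with wide spread in both groups. Cxcl16 differed by 0.68 (SE 0.28, adjusted p = 0.717), Ccl9 by 0.51 (SE 0.38, adjusted p = 0.832) and Ccl5, which recruits T cells, by 0.32 (adjusted p = 0.926). The 2 Cxcl16 probes differed in detail: the brighter one, used in the test, overlapped between the groups, and the other ran from -5.75 to -5.06 in WT_CTR and from -4.57 to -4.52 in APP-PS1_CTR. Ccl2, the main monocyte attractant, was at -0.21 (adjusted p = 0.961). Cxcl1 was at -0.53 (adjusted p = 0.843), with 1 APP-PS1_CTR array not well above background.

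At the washout stage, Ccl3, Ccl4, Ccl6, Ccl5 and Ccl12 were called higher in transgenic than in wild-type mice, and Cxcl1 lower. WT_WASHOUT arrays had Ccl3 at -5.19, -5.85, -4.02, -6.18 and -4.91, and APP-PS1_WASHOUT arrays at -1.94, -1.73 and -2.31. Ccl3 was 9.43-fold higher (log2 difference 3.24, SE 0.37, adjusted p = 2.02e-06). Ccl4 stood at -5.25, -5.47, -4.75, -5.33 and -5.44 against -2.29, -2.0 and -3.30, a 6.58-fold difference (log2 2.72, SE 0.28, adjusted p = 4.28e-07). APP-PS1_WASHOUT replicate 3 was the lowest of that group and still above every wild-type array. Ccl6 stood at -2.48, -2.16, -1.84, -2.35 and -2.29 against 0.02, 0.04 and -0.77, a 3.97-fold difference (log2 1.99, SE 0.24, adjusted p = 3.43e-06). The same array was again the lowest of its group.

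Ccl5 rested on 1 animal. It stood at -4.16, -4.07, -3.38, -3.59 and -3.01 in WT_WASHOUT and at -3.06, -0.19 and -3.07 in APP-PS1_WASHOUT, where the second array stood far above the other 2. The log2 difference was 1.53 (SE 0.49, 2.90-fold, adjusted p = 0.0241), and 0.58 (adjusted p = 0.292) without that animal. Leaving out WT_WASHOUT replicate 2 also ended the call (1.43, adjusted p = 0.0525). The same APP-PS1_WASHOUT animal had the highest T and NK cell marker sum of its group (14.9, against 10.9 and 8.90). It also had the highest signal of the T cell chemokine receptors Cxcr3 (-3.51, against -5.03 and -5.27) and Cxcr6 (-2.92, against -3.78 and -4.31). That array was likewise the highest of its group for Ccr2, Ccr3, Cxcr1 and Cxcr2, and for every chemokine but Cxcl1. In APP-PS1_UA-WASHOUT, replicates 5 and 2 had higher T and NK cell sums (16.7 and 15.6) with Ccl5 at -2.62 and -3.0. The source of the Ccl5 signal was not tested. Ccl12 stood at -4.10, -4.22, -4.21, -4.40 and -3.19 against -2.70, -2.28 and -3.71, with overlap, a log2 difference of 1.13 (SE 0.34, 2.18-fold, adjusted p = 0.0172). Its call was lost without APP-PS1_WASHOUT replicate 1 (1.03, adjusted p = 0.0714) or 2 (0.82, adjusted p = 0.134). Of 12 alternatives other than left-out animals, 9 kept the call of Ccl12, and 9 kept that of Ccl5. The genotype difference of Ccl12 was not shown to differ between the stages (-0.42, 95% interval -1.44 to 0.61, adjusted p = 0.643).

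Ccl2, at 0.57 (adjusted p = 0.503), also turned on 1 animal. It stood at -5.58, -5.93, -5.03, -5.07 and -2.27 in WT_WASHOUT and at -4.41, -3.42 and -4.78 in APP-PS1_WASHOUT. The fifth wild-type array was higher than every transgenic one, and without it the log2 difference was 1.20 (adjusted p = 0.0237). That array also had the highest Ccl5, Ccl12, Cxcl1, Cxcl10 and Cxcl16 of its group. Cxcl10 (0.87, adjusted p = 0.219), Cxcl16 (0.52, adjusted p = 0.160) and Ccl9 (0.27, adjusted p = 0.627) were not called.

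The washout comparison changed many features: 20.0% were called higher and 7.67% lower (7036 and 2705 of 35259), against 5 and 1 of the 10 chemokines. The 10 had a median log2 difference of 1.0, with 9 above 0, and all features one of 0.08. Every transgenic array was above every wild-type array for 3 chemokines, Ccl3, Ccl4 and Ccl6, an order that 21.3% of features showed. The share of higher among all calls was 72.2%, and 40.8% when arrays were scaled to their median, which moved the median of all features from 0.08 to -0.13. The 2 groups lay on different slides, so slide and group cannot be told apart. Within slide 2, which held WT_WASHOUT and 3 APP-PS1_UA arrays, Ccl3 was at -2.30, -1.26 and -2.50 in the APP-PS1_UA arrays against -6.18 to -4.02, Ccl4 at -3.27, -2.22 and -3.07 against -5.47 to -4.75, and Ccl6 at -0.60, 0.36 and -0.54 against -2.48 to -1.84. These groups did not overlap, but they differ in treatment and stage as well as in genotype.

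Cell type markers moved over the same arrays. The microglial sum was 48.7 to 60.1 in WT_WASHOUT and 112 to 130 in APP-PS1_WASHOUT, with 8 of 12 markers called higher. The median log2 difference of these markers was 0.58, with 10 of 12 above 0. Sums add linear signal, so the brightest genes weigh most. Plaque-associated genes were at 14.5 to 19.1 against 25.0 to 32.7, with 8 of 11 called. T and NK cell markers were at 3.81 to 6.29 against 8.90 to 14.9, with 7 of 8 measured genes called. Of the 8 genes, 6 to 7 were well above background on WT_WASHOUT arrays and 7 to 8 on APP-PS1_WASHOUT arrays. On APP-PS1_UA-WASHOUT arrays 6 to 7 were. The T cell receptor subunit gene Cd3g was well above background on 2 of the 3 APP-PS1_WASHOUT arrays and on 0 wild-type arrays. The astrocyte sum was at 120 to 139 against 189 to 201, with 2 of 7 markers called and a median log2 difference of 0.13. Neutrophil marker sums overlapped (0.49 to 2.49 against 1.71 to 3.26), with 1 of 7 called, 7 of 7 above 0 and a median log2 difference of 0.82. Monocyte marker sums overlapped too (7.79 to 10.7 against 7.46 to 8.78), with 1 of 6 called and a median of 0.52. The part of these cell types, and of slide, in the chemokine differences was not tested.

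**Figure D2:**
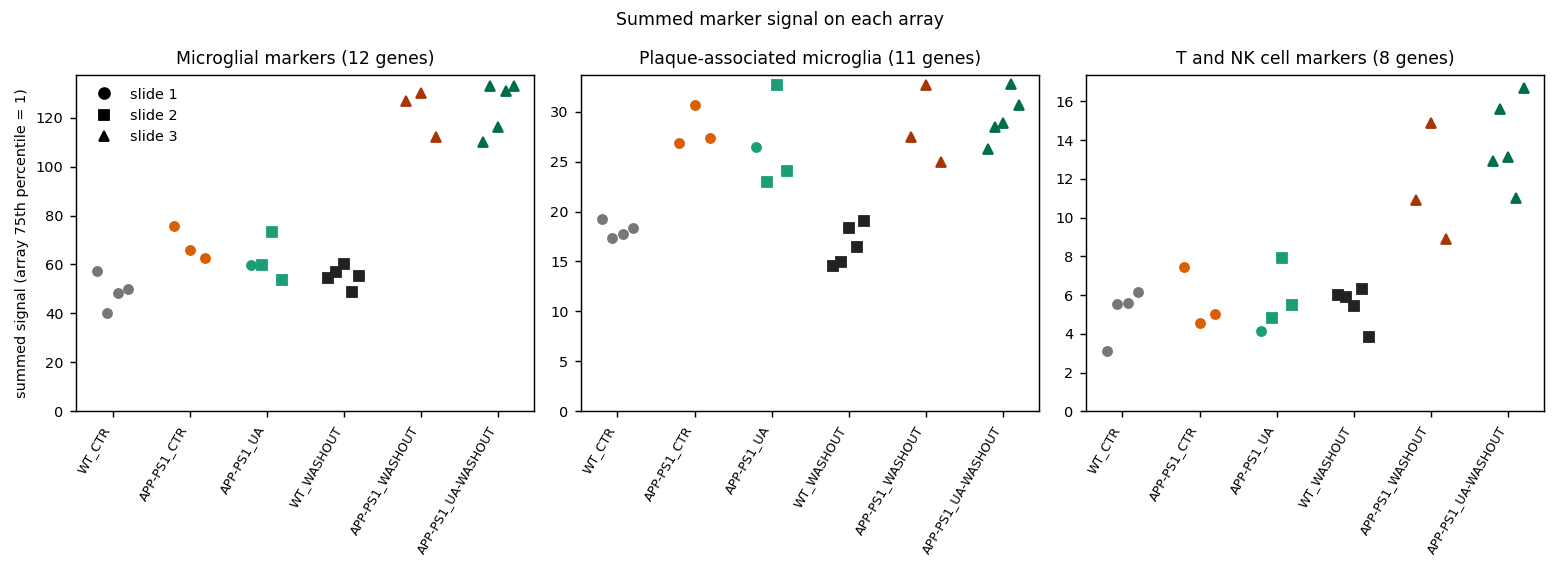
Summed signal of marker genes on each array, in units of the array's 75th percentile, by group, for microglial, plaque-associated microglial and T or NK cell markers; points are animals and their shape is the slide. Microglial sums are at 110 to 133 in APP-PS1_UA-WASHOUT and 112 to 130 in APP-PS1_WASHOUT, above the other 4 groups. The brightest genes weigh most in these sums. Between APP-PS1_WASHOUT and APP-PS1_CTR the median log2 difference of the microglial markers was 0.05, with 6 of 12 above 0.

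Urolithin A against water in transgenic mice gave no called chemokine, and limma called 0% of all features (0 of 35259, with 2588 at an unadjusted p under 0.05). No chemokine had an unadjusted p under 0.05, the lowest being 0.145. Ccl3 in APP-PS1_UA stood at -1.60, -2.30, -1.26 and -2.50, spread on both sides of the 3 APP-PS1_CTR arrays. The log2 difference was -0.22, with a 95% interval from -1.03 to 0.59. Ccl4 stood at -2.49, -3.27, -2.22 and -3.07, a difference of -0.35 (interval -0.95 to 0.26), and Ccl6 at -0.10, -0.60, 0.36 and -0.54, a difference of -0.25 (interval -0.77 to 0.27). Replicates 2 and 4 were the lower ones for all 3 genes. Ccl12 had the largest difference in size, -0.54 (interval -1.28 to 0.20), followed by Cxcl16 at -0.42 (-1.0 to 0.17). Cxcl10 was at -0.23 (-1.33 to 0.87), Ccl9 at -0.22, Ccl5 at -0.04, Ccl2 at 0.13 and Cxcl1 at 0.26. The intervals leave room for differences in either direction, and 2 of 10 were above 0, with a median of -0.23 against -0.02 over all features. Choroid plexus markers were at 2.76 to 190 in APP-PS1_UA and 92.2 to 136 in APP-PS1_CTR, with 0 of 10 called, 0 of 10 above 0 and a median of -2.52. Microglial sums were at 53.8 to 73.2 and 62.7 to 75.8, with a median of -0.12. The part of either in the chemokine values was not tested.

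Against WT_CTR, mice given urolithin A had the same 3 chemokines called higher as the water-treated transgenic mice, both comparisons resting on the same 4 wild-type arrays. Ccl3 was 5.59-fold higher (log2 2.48, SE 0.36, adjusted p = 0.00533), Ccl4 5.46-fold (2.45, SE 0.27, adjusted p = 7.31e-05) and Ccl6 2.72-fold (1.44, SE 0.23, adjusted p = 0.0129). Over all features, 0.0425% were called higher (15 of 35259), against 3 of 10. Ccl12 stood at -2.62, -2.20, -2.63 and -2.95 in APP-PS1_UA, above every WT_CTR array, with a log2 difference of 1.0 (adjusted p = 0.738). Cxcl10 was at 1.15 (adjusted p = 0.791). With slide as a fixed block the difference of Ccl4 was 2.72 (adjusted p = 0.0130), that of Ccl3 2.80 (adjusted p = 0.143) and that of Ccl6 1.56 (adjusted p = 0.348). Only 1 APP-PS1_UA array lay on slide 1 with WT_CTR, so these slide-blocked differences rest on that array. In the main fit, Ccl6 lost its call without APP-PS1_UA replicate 1 (adjusted p = 0.0629) or 3 (0.0846) or WT_CTR replicate 2 (0.0717) or 3 (0.0751).

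After washout, urolithin A again gave no called chemokine against water. Over all features 0.0624% were called in either direction (22 of 35259), and no chemokine had an unadjusted p under 0.05, the lowest being 0.310. Ccl3 in APP-PS1_UA-WASHOUT stood at -2.19, -1.71, -1.85, -1.53 and -1.91, Ccl4 at -2.47, -2.47, -2.72, -2.13 and -2.29, and Ccl6 at -0.47, 0.14, -0.49, 0.09 and 0.01. Each set overlapped with the 3 APP-PS1_WASHOUT arrays on the same slide. Differences were 0.15 for Ccl3 (95% interval -0.62 to 0.93), 0.12 for Ccl4 (-0.46 to 0.69) and 0.09 for Ccl6 (-0.41 to 0.59). The others ran from -0.47 for Ccl5 to 0.38 for Ccl9. The value of Ccl9, a Ccr1 ligand, came with 1 array at 0.07 where the other 4 were at -2.42 to -1.72. The median over the 10 was 0.12, with 8 above 0, and -0.01 over all features. Whether the urolithin A difference itself changed between the stages was tested directly: 0 of 10 chemokines were called and none had an unadjusted p under 0.05, with values from -0.43 to 0.66, while 0.00851% of all features were called (3 of 35259).

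Against WT_WASHOUT, the mice that had received urolithin A had 5 chemokines called higher and 1 lower, where 23.6% and 12.4% of all features were called (8317 and 4364 of 35259). This comparison shares its 5 wild-type arrays with that of APP-PS1_WASHOUT. Ccl3 was 10.5-fold higher (log2 3.39, SE 0.32, adjusted p = 7.23e-08), Ccl4 7.13-fold (2.83, SE 0.24, adjusted p = 1.41e-08) and Ccl6 4.23-fold (2.08, SE 0.21, adjusted p = 1.29e-07). None of the 5 transgenic arrays overlapped with the wild-type ones for these genes. Ccl12 stood at -2.66, -2.91, -2.47, -2.43 and -3.39, a log2 difference of 1.25 (SE 0.29, 2.38-fold, adjusted p = 0.00213). Cxcl16 stood at -3.52, -4.11, -2.74, -3.14 and -3.51 against -4.31, -4.46, -3.89, -4.27 and -3.82 in WT_WASHOUT, a log2 difference of 0.74 (SE 0.23, 1.68-fold, adjusted p = 0.0156). That call ended with median scaling (0.44, adjusted p = 0.112), with quantile normalization (0.42, adjusted p = 0.181) and without replicate 3 of the treated group (0.58, adjusted p = 0.0529). Ccl5 (1.06, adjusted p = 0.0570), Ccl9 (0.65, adjusted p = 0.115), Ccl2 (0.67, adjusted p = 0.319) and Cxcl10 (0.55, adjusted p = 0.357) were not called. Under median scaling the median of all features moved from 0.05 to -0.25 and the share of higher among all calls from 65.6% to 30.0%. Slide and group cannot be told apart here either.

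**Figure D3:**
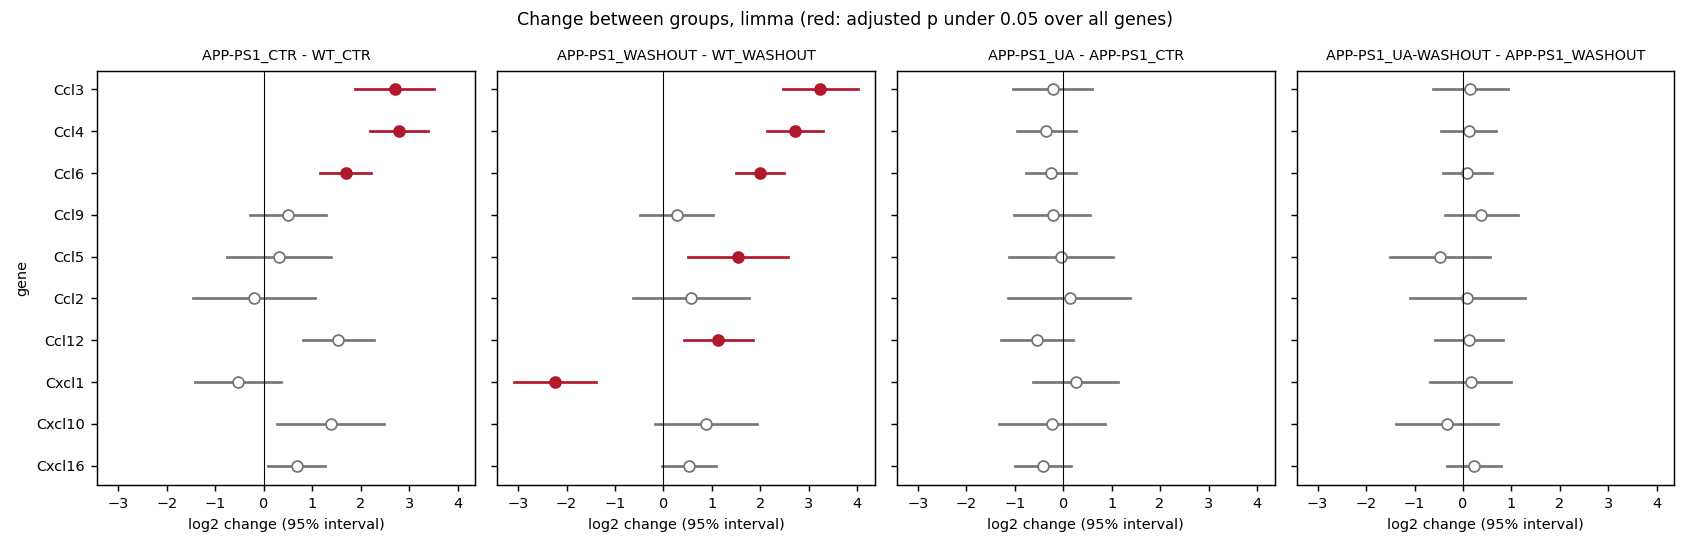
Log2 difference of each of the 10 chemokines, with its 95% interval, for transgenic against wild-type mice and for urolithin A against water, each before and after washout; filled red points have an adjusted p under 0.05. Ccl3, Ccl4 and Ccl6 lie between 1.69 and 3.24 in both genotype comparisons, and no point is filled in either urolithin A comparison.

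Cxcl1, the neutrophil attractant, showed the opposite pattern to Ccl3, Ccl4 and Ccl6 after washout. It stood at -3.99, -2.58, -3.62, -3.12 and -2.08 in WT_WASHOUT, above all other 19 arrays. In APP-PS1_WASHOUT it stood at -5.89, -5.30 and -4.74, and in APP-PS1_UA-WASHOUT at -4.88, -4.35, -4.75, -5.97 and -5.81, the last 2 not well above background. It was 4.70-fold lower in APP-PS1_WASHOUT (log2 -2.23, SE 0.41, adjusted p = 0.000319) and 4.21-fold lower in APP-PS1_UA-WASHOUT (log2 -2.07, SE 0.35, adjusted p = 8.96e-05) than in WT_WASHOUT. Processed signals of Cxcl1 were 85.4 to 438 in WT_WASHOUT and 29.3 to 88.6 in the transgenic washout groups, so these folds involve dim signals.

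Between the wild-type groups, Cxcl1 was 5.87-fold higher after washout than in WT_CTR, where it stood at -5.43, -5.53, -5.79 and -5.78 (log2 2.55, SE 0.37, adjusted p = 0.0152). It was the sole chemokine called in that comparison, where 0.0142% of features were called higher (5 of 35259, and 5 of 6 calls were higher). These groups lay on slides 1 and 2, and the call ended with slide as a fixed block (2.33, SE 0.76, adjusted p = 1) and with array row as a block (2.39, adjusted p = 0.470). APP-PS1_UA alone spanned both slides, with 1 array on slide 1 and 3 on slide 2, so that fixed block rests on this group. Outside it, slide and stage cannot be told apart here. With slide as a random block the Cxcl1 difference was 2.57 (adjusted p = 0.00167). Leaving out WT_CTR replicate 2, 3 or 4 or WT_WASHOUT replicate 2 or 5 gave adjusted p-values of 0.0629 to 0.0971. Within slide 2, the 3 APP-PS1_UA arrays had Cxcl1 at -5.18, -6.08 and -6.28, below all 5 WT_WASHOUT arrays. WT_WASHOUT replicate 1, in the same row as the APP-PS1_UA arrays, was the lowest of its group at -3.99. These groups differ in genotype, treatment and stage, and the cause of the Cxcl1 values was not tested. The other 9 chemokines were not called, with Ccl3 at -0.83 (adjusted p = 0.552), Ccl6 at -0.56 (adjusted p = 0.528) and Ccl4 at -0.03.

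Neutrophil marker sums overlapped between the wild-type groups, at 0.49 to 2.49 in WT_WASHOUT and 1.07 to 3.39 in WT_CTR. Their median log2 difference was -0.26, with 1 of 7 above 0 and no call. The part of neutrophils in the Cxcl1 values was not tested. The transgenic difference in Cxcl1 was -0.53 before and -2.23 after washout, and the test of that change gave -1.70 (SE 0.59, 95% interval -2.93 to -0.48, unadjusted p = 0.00883, adjusted p = 0.0578). Over all features 14.2% were called in this test (4997 of 35259, 82.2% of them higher, and 45.8% with median scaling), against 0 of the 10 chemokines, of which 1 had an unadjusted p under 0.05. Ccl3 changed its difference by 0.54 (adjusted p = 0.572), Ccl4 by -0.08, Ccl6 by 0.30 and Ccl5 by 1.21 (adjusted p = 0.285).

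Within water-treated transgenic mice, no chemokine was called between the washout and the earlier stage, while 22.8% of all features were (8040 of 35259, 74.3% of them higher, and 49.6% with median scaling). Ccl3 (-0.29), Ccl4 (-0.11) and Ccl6 (-0.27) had values within the spread of their groups. Ccl5 was at 0.95 (adjusted p = 0.230), Cxcl1 at 0.85 (adjusted p = 0.192) and Ccl12 at -0.83 (adjusted p = 0.123), the last being the one with an unadjusted p under 0.05. The stages lay on different slides.

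Of 23 listed chemokine receptors, those of the members among them, 20 were measured. None was called before washout, and 8 of 20 were higher in APP-PS1_WASHOUT than in WT_WASHOUT, where 20.0% of all features were called higher. Their median log2 difference went from 0.13 to 0.66, against -0.01 and 0.08 for all features. Most were dim. Ccr3, the eosinophil receptor, was not well above background on any WT_WASHOUT array and was so on 3 of 3 APP-PS1_WASHOUT arrays, at least 1.62-fold higher (adjusted p = 0.00308). Ccr2, the receptor of Ccl2 and Ccl12, was at least 1.29-fold higher, measured on 2 of 3 arrays (adjusted p = 0.0136), and Ccr4 at least 1.43-fold, also on 2 of 3 (adjusted p = 0.000978). These bounds take the bright group's mean, including any array not well above background. Each dim-group array enters with its measured value or, where higher, its lowest signal of any probe well above background. That signal is not the receptor probe's own limit, so the bounds are approximate. Cxcr1 was well above background on 3 of 3 APP-PS1_WASHOUT arrays and on no other array, and at least 4.08-fold higher than in WT_WASHOUT. It was the one receptor called between the urolithin A and water groups after washout, at least 1.78-fold lower with urolithin A. Since Cxcr1 passed the filter on dim probes only through the group where it was high, its calls in both comparisons are not independent of that filter. Ccr2, Ccr3 and Ccr4 also passed it only with arrays of the transgenic washout groups. Their calls, and the count and median of the receptors at the washout stage, are therefore not independent of the filter.

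The Cxcl10 receptor Cxcr3, a mark of activated T cells, had a log2 difference of 0.16 (adjusted p = 0.953) before washout and of 1.54 (SE 0.35, adjusted p = 0.00232) after it. Cx3cr1, the microglial fractalkine receptor, was 0.43 higher after washout (adjusted p = 0.0137), and Ccr6 (1.17) and Ccr8 (0.88) were also called. Cxcr6, the receptor of Cxcl16, was at 0.18 before and 0.55 (adjusted p = 0.151) after washout. The Cxcl1 receptor Cxcr2 was not well above background on any WT_WASHOUT array and was so on 3 of 3 APP-PS1_WASHOUT arrays, with an adjusted p of 0.0688. In APP-PS1_UA-WASHOUT, 10 of 20 receptors were called higher than in WT_WASHOUT, where 23.6% of all features were. Of these, Ccr2 and Cxcr1 were well above background on 0 of the 5 arrays, Ccr4 on 1 and Ccr3 and Cxcr2 on 2. Each of them passed the filter only with arrays of the transgenic washout groups, so this count is not independent of it either. The lowest processed signal was 5.35 to 11.6 on the 5 APP-PS1_UA-WASHOUT arrays and 3.71 to 4.62 in APP-PS1_WASHOUT, against 3.06 to 3.30 in WT_WASHOUT. Its part in the calls of dim receptors was not tested, and slide and group cannot be told apart in these comparisons. Ccr1 had no probe that passed the filter.

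**Figure D4:**
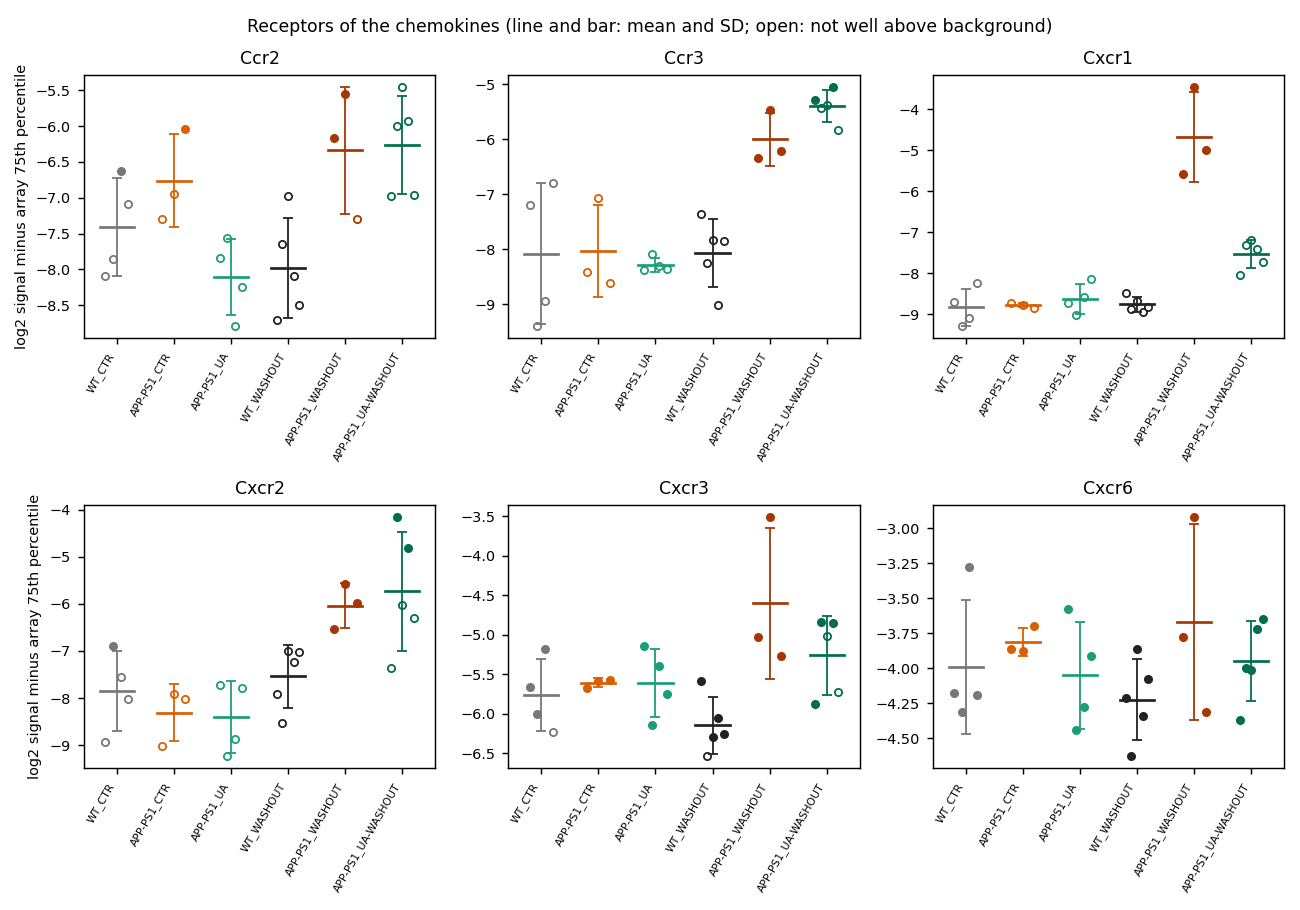
Log2 signal of 6 chemokine receptors on each array relative to the array's 75th percentile, by group; lines and bars are the mean and SD, and open points are arrays on which the probe was not well above background. Cxcr6 is measured on every array, while Ccr3 is measured on 3 APP-PS1_WASHOUT and 2 APP-PS1_UA-WASHOUT arrays alone.

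Of 28 further ligands, 17 were measured and 0 were called before washout (median 0.21), and 2 of 17 were higher after it, where 20.0% of all features were: Ccl21a, a lymphoid chemokine (0.57, adjusted p = 0.0191), and Cxcl5, a Cxcr2 ligand (2.26, adjusted p = 0.0237). Of 23 measured regulators of chemokine transcription, out of 25 listed from the NF-kappa B, interferon and Toll-like receptor pathways, 1 was called before washout. It was Irf8, a transcription factor of microglia (0.68, SE 0.12, adjusted p = 0.0270). After washout 7 of 23 were higher and 2 lower, beside 20.0% and 7.67% of all features. The higher ones were Irf8 (1.01, adjusted p = 2.41e-06), the cytokine Tnf (0.97, adjusted p = 9.24e-06), Nfkb2 (0.79), Rel (0.85), Tlr2 (1.02), Irf5 (0.49) and Ticam1 (0.48). Nfkbiz (-0.69) and Stat2 (-0.40) were the lower ones. Adam10 and Adam17, which shed Cxcl16, were at 0.16 and 0.23 before and at -0.21 and -0.06 after washout, with no call. Urolithin A against water gave no call among other ligands, regulators or sheddases at either stage.

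The chemokines followed one another unevenly. Among 18208 genes, those whose signal over the 24 arrays was most like that of Ccl3 were Bcl2a1d (Pearson r = 0.97), Ccl6, Ccl4 and Cst7 (each 0.96) and Cd72 (0.95). For Ccl4 they were Cst7 and Trem2 (each 0.98), then Tyrobp, Gpr84 and Ccl3 (each 0.96). For Ccl6 they were Ccl3, Bcl2a1d, Trem2, Mpeg1 and Ccl4 (each 0.96). These values include the gap between genotypes and the arrays share slides. Within the 15 transgenic arrays, Ccl3 and Ccl6 had r = 0.87, Ccl4 and Ccl6 0.81 and Ccl3 and Ccl4 0.73. Ccl2 and Ccl5 had 0.76 and Ccl12 and Cxcl10 0.70, while Ccl3 and Ccl5, which share receptor Ccr1, had 0.05 and Ccl6 and Cxcl1 had -0.42.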

How the data were processed

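Hippocampal RNA of 24 mice was hybridised to one-colour mouse arrays of 62976 spots. The deposited intensity values were extracted with Feature Extraction 12.0.3.1 and background-subtracted within each array, per the file headers. The authors' deposited value table holds scores that match each array's log signal, centred on its mean and divided by its SD, to within 0.005, in the same direction (column medians -0.17 to -0.06), and it was used as an alternative. Here the log2 of the processed intensity was taken relative to each array's 75th percentile over all spots but the 3671 controls, 3407 spot values marked as outliers by the software were left out, and repeat spots were averaged. A probe was kept when well above background on at least 3 arrays with at least 2 values per group (43988 of 56605), and the brightest kept probe stood for a gene. limma 3.58.1 in R 4.3.3 fitted 6 group means over 24 arrays, with Benjamini-Hochberg adjustment over 35259 features and a threshold of 0.05, for 10 contrasts. The fit was tested on simulated data. A probe carries the symbol of the gene to which its RefSeq or Ensembl identifier belongs, and 23611 of the 56605 matched none. All 10 members are named, with their receptors, of which 1 is not reported here. Of further ligands, receptors and regulators, up to 6 called genes per list are named in order of adjusted p before washout, and those beyond 6 were chosen after their values were seen. The members and lists were chosen with earlier results of these data known. No spot was saturated (0 on each array). The number of arrays limits the precision. Array probe sequences were not used here, so cross-hybridisation between related chemokines was not examined.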

Additional observations from a re-analysis of the deposited data

Results flagged for a closer look

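Of 40 chemokine and group combinations with 4 or 5 animals, 3 held an animal whose gap to the nearest other animal took up more of the group's range than Dixon's critical value at the 95% level allows; chance gives about 1 in 20. Ccl2 in WT_WASHOUT replicate 5 was at -2.27, with the others at -5.93 to -5.03 and a gap of 0.75 of the range. Ccl12 was at -3.19 in the same animal, with the others at -4.40 to -4.10 and a gap of 0.75 of the range. Both genes encode ligands of Ccr2. Without being flagged, Ccl5 (-3.01), Cxcl1 (-2.08), Cxcl10 (-2.43) and Cxcl16 (-3.82) were also highest of their group in this animal. Ccl9 in APP-PS1_UA-WASHOUT replicate 1 was at 0.07, with the others at -2.42 to -1.72 and a gap of 0.72 of the range. The causes were not tested.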

How the results depend on the processing

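Of the log2 differences of called chemokines, 362 recomputed values kept direction and call, 41 kept the direction and lost the call, and 0 reversed. For the genotype comparison before washout, array row as a block left 1 call of 3 (Ccl4), where the cause was not tested. For APP-PS1_UA against WT_CTR, slide as a fixed block left 1 call (Ccl4), and slide 1 alone or the 2 groups alone left 0 with fewer arrays. For WT_WASHOUT against WT_CTR, quantile normalization, slide as a fixed block, array row as a block and the 2 groups alone each left 0 calls, and leaving out single animals gave 0 to 1. For APP-PS1_WASHOUT against APP-PS1_CTR, the authors' scores and array weights each gave 1 call (Ccl12), and leaving out single animals 0 to 1, with 1 without APP-PS1_CTR replicate 1. For the change of the genotype difference between stages, normexp background correction (chosen after seeing the data), median scaling, quantile normalization, the authors' scores, slide as a random block and array weights each gave 1 call (Cxcl1), and single animals 0 to 1, with 1 without WT_WASHOUT replicate 1 or 3 or APP-PS1_WASHOUT replicate 3. Replicate numbers did not pair animals (52 same-number correlations from -0.27 to 0.32, median 0.01). With a replicate block the calls were 3 in APP-PS1_CTR and 2 in APP-PS1_UA against WT_CTR (Ccl6 1.44, adjusted p = 0.0713), 6 in each washout group against WT_WASHOUT, and 1 between the wild-type groups. Over all features, calls across alternatives other than left-out animals ran from 8 to 164 (main 55) and 4 to 30 (17) for APP-PS1_CTR and APP-PS1_UA against WT_CTR, 5806 to 12426 (9741) and 9549 to 21637 (12681) for the 2 washout groups against WT_WASHOUT, 0 to 2964 (22) and 0 to 11 (0) for urolithin A after and before washout, 0 to 76 (6) between wild-type groups, 3834 to 12456 (8040) between transgenic stages, 758 to 7700 (4997) for the stage test of genotype and 1 to 36 (3) for that of urolithin A. Cxcl1 was not well above background on 3 arrays, and it was dim on the others outside WT_WASHOUT. Its processed signal before washout was 20.2 to 49.6. Most receptors were dim too.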
